A study of Mus musculus with 6 samples.

Results

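The Notch pathway was followed through 10 genes in preSC cells: the ligand genes Dll1, Dll3, Dll4, Jag1 and Jag2, the receptor genes Notch1, Notch2 and Notch3, and the HES genes Hes1 and Hes6. They were listed by name as genes of the pathway, with earlier results of these data known. All 10 were found among the 23284 genes of each count file. The cells are a mouse line that the labels describe as a precursor of small cell lung cancer (SCLC), and all 6 libraries carried a lentiviral pLKO.1-TRC vector. Of the 3 control libraries, 2 held the empty vector (shEmpty, replicates 1 and 2) and 1 held shNS, a non-silencing hairpin (replicate 3). The 3 shCrebbp libraries each held a different hairpin against Crebbp (1, 2 and 5), the gene of the histone acetyltransferase CREB-binding protein, so that each hairpin stands on 1 library. Separate cultures are not named in the labels, and p-values measure only the spread between libraries, which may be technical and which in the shCrebbp group includes the difference between hairpins.

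Notch receptors are cut when a ligand on a neighbouring cell binds them, and the freed intracellular domain joins the DNA-binding protein RBPJ and a Mastermind coactivator to switch on targets such as the HES repressors. CREB-binding protein and its relative p300 are acetyltransferases that this nuclear complex can recruit. In the lung, HES1 holds back neuroendocrine fate, and neuroendocrine cells, which carry Delta-type ligands, tend to send the signal more than they receive it.

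The cells carried much ligand and little receptor RNA. Every ligand gene was lower in every shCrebbp library than in any control, a pattern seen in 11.0% of the 13390 tested genes. Of the ligands, Dll1 and Dll4 passed the test, where 0.978% of tested genes were called lower. Both calls were lost when any single control or hairpin 2 was left out. Hes1 was also below the controls in all 3 shCrebbp libraries, by 2.14-fold on average, without passing the test. No receptor gene was called, and Notch2, which with Notch4 was abundant enough to be tested, had a positive fold change with overlapping groups.

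Gene counts totalled 13622000 to 19804900 reads per library. Values are CPM, read counts scaled to the library size with TMM factors, and 1 CPM stood for 13.6 to 19.6 reads. Crebbp itself ranged from 66.2 to 69.6 CPM in controls and from 46.1 to 58.2 CPM under the hairpins (log2 fold change -0.42 ± 0.10, SE; edgeR adjusted p = 0.0999). The neuroendocrine markers Calca, Chga, Syp, Uchl1 and Insm1 were detected in all 6 libraries. Among them Calca, the gene of calcitonin gene-related peptide, was below all controls in each shCrebbp library (1591 to 2008 against 631 to 1160 CPM; edgeR adjusted p = 0.0558), as was Chga (451 to 472 against 318 to 425 CPM; adjusted p = 0.244). This pattern was seen in 11.0% of the 13390 tested genes. Syp, Uchl1 and Insm1 overlapped between the groups, with log2 fold changes of -0.06, 0.10 and 0.20. The part of these markers in the results that follow was not tested. The 6 endothelial markers summed to 1.39 to 1.52 CPM and 0.884 to 1.71 CPM, with Emcn at 0, the 6 leukocyte markers to 3.01 to 5.40 and 3.67 to 5.43 CPM, and the 6 club, ciliated and alveolar markers to 8.83 to 9.75 and 4.55 to 9.11 CPM, with Scgb3a2 at 0. The 6 fibroblast markers summed to 37.1 to 45.1 and 12.9 to 63.1 CPM, nearly all of it Dcn, with Col3a1 at 0. No member of the 5 marker lists was called. In bulk RNA, fewer cells that express a gene and less RNA per cell cannot be told apart.

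Across the 10 genes, levels spanned more than 4 orders of magnitude once scaled by transcript length. In CPM per kilobase of the longest annotated transcript, averaged over the 3 controls, Hes6 stood highest at 203 ± 34.8 (SD, n = 3), followed by Jag2 at 36.5 ± 0.759 and Dll3 at 22.1 ± 1.64. Hes1 came next at 14.6 ± 2.60, then Dll1 at 12.2 ± 0.627, Jag1 at 3.18 ± 0.372 and Dll4 at 1.34 ± 0.0966. The receptors were last, with Notch2 at 0.546 ± 0.0207, Notch1 at 0.0512 ± 0.00270 and Notch3 at 0.00910 ± 0.0158. Of these neighbours in the order, only Hes1 and Dll1 had overlapping control ranges (12.5 to 17.5 and 11.8 to 12.9 CPM per kilobase). In the controls all ligands and both HES genes thus stood above all 3 receptors. Under the hairpins Dll4, at a mean of 0.468 CPM per kilobase, stood below Notch2, at 0.889, and Hes1, at 6.80, below Dll1, at 8.05.

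**Figure D1:**
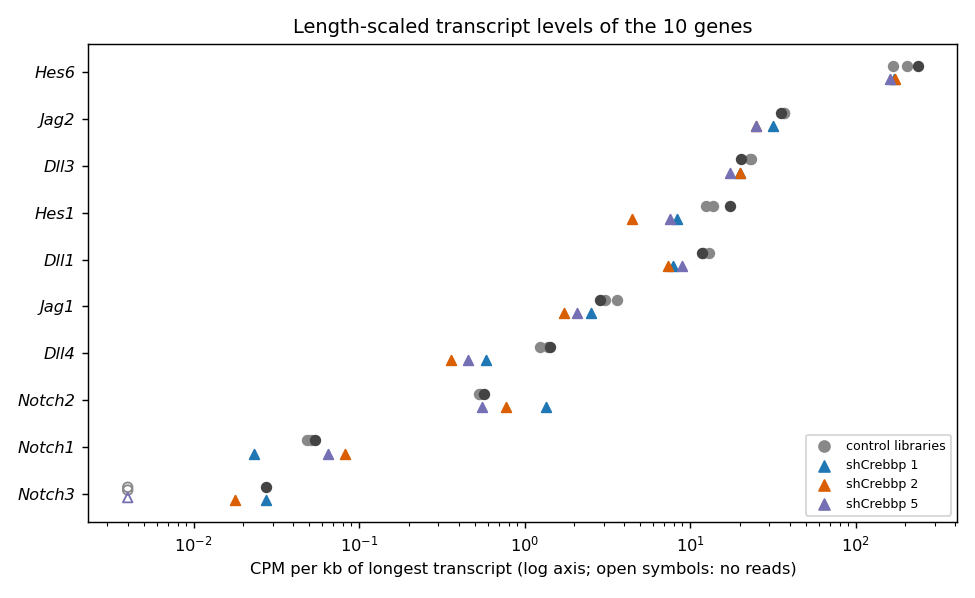
Transcript level (CPM per kb of the longest transcript, log axis) of each gene in the 6 libraries, ordered by the control mean, with circles for the 3 controls (shNS darker) and triangles for the 3 shCrebbp hairpins. Controls place Hes6 at 203 and Jag2 at 36.5, against 0.546 for Notch2, and open symbols mark the 3 libraries without a Notch3 read.

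Scaled in this way, the 5 ligands together outweighed Notch1 to Notch3 by 134, 130 and 111 to 1 in control replicates 1, 2 and 3, and by 45.1, 62.4 and 87.5 to 1 under hairpins 1, 2 and 5. Counting the fourth receptor gene, Notch4, with them, the ratio was 78.7 ± 4.10 in controls and 46.0 ± 11.6 under the hairpins (SD, n = 3 each). The ligand sum was 71.9 to 77.5 CPM per kilobase in controls and 62.8, 54.5 and 53.8 under hairpins 1, 2 and 5. Notch2, the largest part of the receptor sum, was 0.530 to 0.570 in controls and 1.34, 0.773 and 0.551 under these hairpins. The ratio was lower in every shCrebbp library than in any control. Its size depends on the transcripts taken for length: with the shortest ones the 5 ligands outweighed Notch1 to Notch3 by 216 ± 35.4 to 1 in controls and by 92.3 to 135 to 1 under the hairpins. RNA levels across genes do not give protein at the cell surface.

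Short stretches upstream of the transcription start are shown for the 2 called ligands, Dll1 and Dll4, and for the 3 other members whose window held an E-box, the CAGCTG form. They are the 250 bases before an annotated RefSeq start (GRCm38.p6, 5′ to 3′ on the gene's strand), at chr17:15376933-15377182 (minus strand) for Dll1, chr2:119325534-119325783 (plus) for Dll4, chr7:28301786-28302035 (minus) for Dll3, chr2:137116521-137116770 (minus) for Jag1 and chr1:91413223-91413472 (minus) for Hes6. Capitals mark matches to the motifs searched.
Dll1: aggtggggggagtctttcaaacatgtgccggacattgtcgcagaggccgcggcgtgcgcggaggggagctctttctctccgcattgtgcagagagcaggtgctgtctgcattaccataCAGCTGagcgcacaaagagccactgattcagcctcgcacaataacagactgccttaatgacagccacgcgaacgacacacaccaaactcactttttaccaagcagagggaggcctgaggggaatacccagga
Dll4: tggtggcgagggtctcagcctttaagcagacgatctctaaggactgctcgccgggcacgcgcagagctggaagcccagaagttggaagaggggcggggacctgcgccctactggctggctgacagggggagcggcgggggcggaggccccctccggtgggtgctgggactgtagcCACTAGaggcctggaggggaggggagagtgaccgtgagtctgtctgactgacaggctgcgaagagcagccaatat
Dll3: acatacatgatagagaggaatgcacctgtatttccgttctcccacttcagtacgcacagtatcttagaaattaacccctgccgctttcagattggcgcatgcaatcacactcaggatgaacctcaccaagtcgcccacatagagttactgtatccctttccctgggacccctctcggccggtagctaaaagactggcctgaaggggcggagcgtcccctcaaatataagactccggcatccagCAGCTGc
Jag1: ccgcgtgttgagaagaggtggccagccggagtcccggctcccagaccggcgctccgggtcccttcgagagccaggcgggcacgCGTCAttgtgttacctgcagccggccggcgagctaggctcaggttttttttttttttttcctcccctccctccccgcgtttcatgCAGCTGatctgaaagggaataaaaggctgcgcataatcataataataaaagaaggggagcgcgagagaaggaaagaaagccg
Hes6: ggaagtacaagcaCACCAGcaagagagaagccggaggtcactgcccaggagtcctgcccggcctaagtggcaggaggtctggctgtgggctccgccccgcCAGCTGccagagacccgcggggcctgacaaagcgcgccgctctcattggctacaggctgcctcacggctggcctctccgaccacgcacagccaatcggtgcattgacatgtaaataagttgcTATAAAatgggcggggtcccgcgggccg

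The motifs were searched on both strands in windows from 250 bases before to 50 after the start, which were at hand for 9 of the 10 members (Hes1 had none). An E-box lay in a window of Dll1 (132 bases upstream), Dll3 (7), Jag1 (82) and Hes6 (150, and 171 at a second start), and 16.3% of all 32851 promoter windows of that length held one. The N-box CACNAG, a form bound by HES proteins, was found in Dll1, Dll4, Notch1, Notch2, Notch3 and Hes6, and in 42.5% of all windows; in Dll1 it lay past the start and is not in the stretch shown. The shorter CRE part TGACG was found in Jag1 and Notch3 (20.8% of all), and the TATA box TATAAA in Hes6 (13.6%). No member window held the RBPJ core TGGGAA (25.6% of all) or the full CRE TGACGTCA (1.79%). The Jag2 window, with a GC content of 86%, held none of the motifs, nor did the window of a further Dll1 start inside the gene. In Notch1, N-box matches on opposite strands overlapped, and no other matches did. These are matches of letters and say nothing of binding.

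All 5 ligands were lower under the hairpins. Each ligand had its 3 shCrebbp libraries below its 3 controls, a pattern seen in 11.0% of the 13390 tested genes (the opposite pattern in 11.4%). By the test, 2 of the 5 ligands were called lower and none higher, where 0.978% of tested genes were called lower, 0.276% higher and 1.25% in either direction. The median log2 fold change of the ligands was -0.60, against 0.01 over all tested genes.

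Dll4, the Delta-type ligand best known from sprouting vessels, was the ligand of largest change. It measured 5.16, 4.63 and 5.32 CPM in control replicates 1, 2 and 3 (101, 76 and 73 reads) and 2.20, 1.35 and 1.70 CPM under hairpins 1, 2 and 5 (30, 19 and 25 reads). The lowest control was thus above the highest hairpin library, and the groups did not overlap. The means were 5.04 ± 0.362 and 1.75 ± 0.428 CPM (SD, n = 3 each), a 2.87-fold fall (log2 fold change -1.52 ± 0.26, SE; edgeR adjusted p = 0.0353). In the controls the 6 endothelial markers summed to 1.39 to 1.52 CPM, less than Dll4 alone. Under the hairpins they summed to 0.884 to 1.71 CPM, a range that overlapped that of Dll4. Their part in the Dll4 level was not tested. An antisense gene, Gm14207, overlaps Dll4 in the reference annotation and had 4, 5 and 7 reads in the controls and 1 read with each hairpin. A930024N18Rik overlaps Dll1 on the opposite strand and was not among the counted genes. The strand setting of the counting is not given in the sources used here. Whether reads from the opposite strand were counted for these ligands is therefore not known.

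Dll1, a Delta-type ligand of neural precursors, fell by a smaller factor from a higher level. It measured 46.4 and 43.0 CPM in the shEmpty libraries and 42.1 CPM in shNS, against 28.1, 26.3 and 32.2 CPM under hairpins 1, 2 and 5. Each hairpin library was below each control, with hairpin 5 nearest to them. The means were 43.8 ± 2.25 and 28.8 ± 3.03 CPM (SD, n = 3 each), a 1.52-fold fall (log2 fold change -0.60 ± 0.11, SE; edgeR adjusted p = 0.0377).

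Neither call held under every omission of a library. Dll1 lost its call without any one of the 3 controls or hairpin 2 (edgeR adjusted p = 0.0707 to 0.227), and Dll4 without any one of the 3 controls, hairpin 2 or hairpin 5 (0.0508 to 0.204), while the log2 fold changes stayed between -0.70 and -0.53 and between -1.72 and -1.37 over all alternatives.

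Jag2, the Jagged-type ligand with the most transcript among the ligands, measured 187 and 190 CPM in the shEmpty libraries and 182 CPM in shNS, against 162, 128 and 127 CPM under hairpins 1, 2 and 5. Hairpins 2 and 5 were close together and hairpin 1 lay between them and the controls. The log2 fold change was -0.42 ± 0.11 (SE) and did not pass (edgeR adjusted p = 0.106), although Jag2 was called lower by DESeq2 (adjusted p = 0.0140), by limma-voom with quality weights (0.0104) and by edgeR without hairpin 1 (0.0179).

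Jag1, the other Jagged-type ligand, measured 20.2 and 17.2 CPM in the shEmpty libraries and 16.1 CPM in shNS, against 14.2, 9.68 and 11.6 CPM under hairpins 1, 2 and 5. The groups did not overlap, but the lowest control and hairpin 1 differed by less than the spread of the controls. Its log2 fold change of -0.60 ± 0.17 (SE) equalled that of Dll1 with a larger error, and it was not called (edgeR adjusted p = 0.138), nor was it under any alternative run.

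Dll3, an atypical Delta protein that acts inside the cell to dampen Notch signalling and is abundant in SCLC, differed least among the ligands. It measured 59.9 and 60.8 CPM in the shEmpty libraries and 53.0 CPM in shNS, against 52.5, 52.6 and 45.4 CPM under hairpins 1, 2 and 5. The shNS control lay within 1 CPM of hairpins 1 and 2. The log2 fold change was -0.21 ± 0.10 (SE; edgeR adjusted p = 0.353), and Dll3 was not called under any alternative run.

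The mix of ligand RNA was described without a test. Summed per kilobase, ligand RNA stood at 75.4 ± 3.01 CPM per kilobase in controls and 57.0 ± 5.0 under the hairpins (SD, n = 3 each). Dll3 made up 28.1% to 30.3% of that sum in controls and 31.9% to 36.9% under the hairpins, and Dll4 made up 1.61% to 1.98% and 0.662% to 0.936%. Neither pair of ranges overlapped. The shares of Jag2 (47.4% to 49.6% and 45.8% to 50.6%), Dll1 (15.7% to 16.7% and 12.5% to 16.7%) and Jag1 (3.99% to 4.64% and 3.17% to 4.02%) did overlap. These shares also depend on the transcripts taken for length. With the shortest ones Dll3 made up 6.15% to 6.77% of the sum in controls and 7.14% to 8.71% under the hairpins, Dll4 0.360% to 0.432% and 0.156% to 0.209%, and Jag2 74.1% ± 0.808 in controls, and again only the ranges of Dll3 and Dll4 did not overlap.

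**Figure D2:**
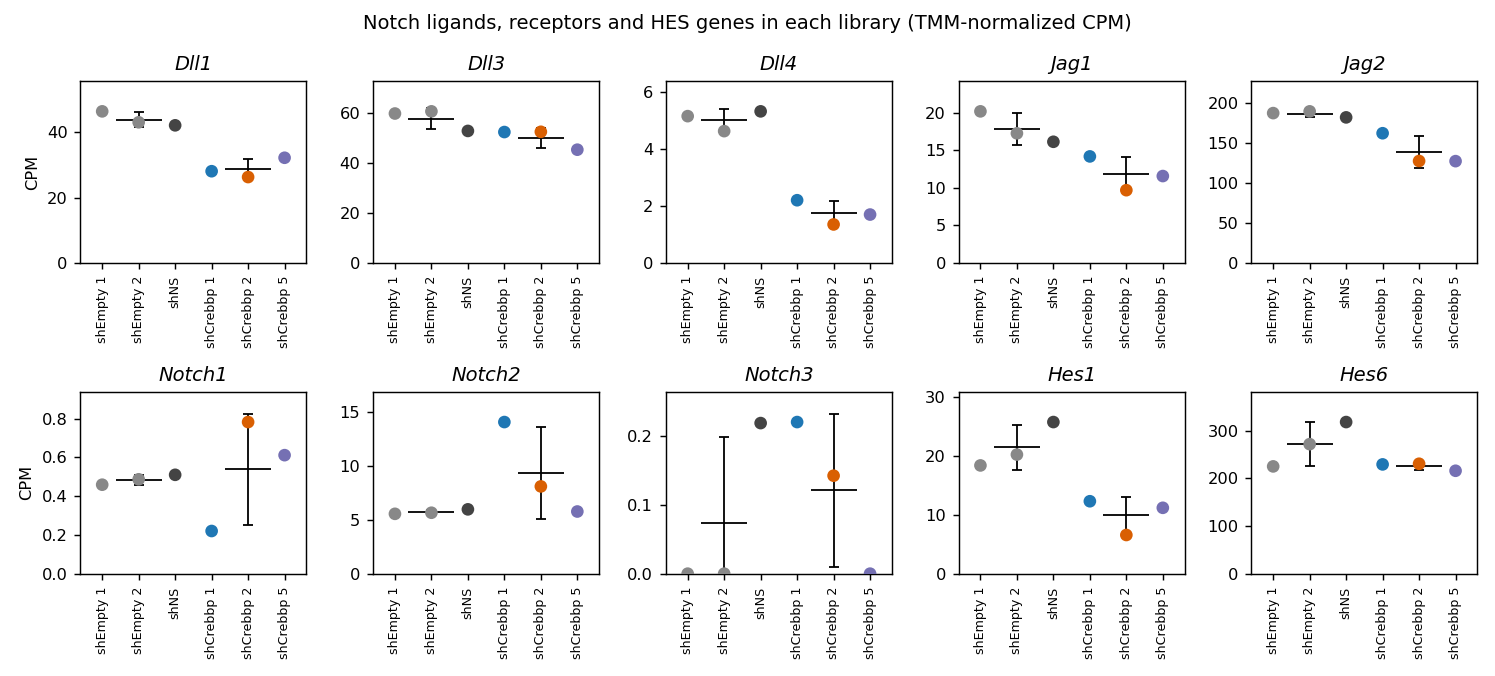
TMM-normalized CPM (linear axis from 0, scaled per gene) of each of the 10 genes in each library, with grey points for controls (shNS darker), coloured points for the 3 shCrebbp hairpins, and black lines for the mean and SD of each group of 3. The 5 ligands and Hes1 lie below all controls in each shCrebbp library, as do 11.0% of all tested genes. Notch2 reaches 14.1 CPM with hairpin 1 and stays at 5.78 CPM with hairpin 5.

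Of the receptor genes, none was called. Notch2, the receptor with the most reads, measured 5.56 and 5.67 CPM in the shEmpty libraries and 5.98 CPM in shNS, against 14.1, 8.11 and 5.78 CPM under hairpins 1, 2 and 5. Hairpins 1 and 2 lay above the controls and hairpin 5 among them, so the groups overlapped. The log2 fold change was 0.70 ± 0.31 (SE) and did not pass (edgeR adjusted p = 0.307). The value was 0.27 without hairpin 1, 0.79 without hairpin 2 and 0.94 without hairpin 5.

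Notch1 and Notch3 were near the limit of detection and did not pass the filter on low counts, in either group. Notch1, a broadly expressed receptor gene, had 9, 8 and 7 reads in control replicates 1, 2 and 3 and 3, 11 and 9 reads under hairpins 1, 2 and 5. Pooled over each group, its level was 0.483 CPM in controls and 0.543 CPM under the hairpins (exact 95% Poisson intervals 0.309 to 0.718 and 0.344 to 0.814 CPM, covering counting error only). Notch3 had 0, 0 and 3 reads in the controls and 3, 2 and 0 reads under the hairpins, or 0.0603 and 0.118 CPM when pooled (exact 95% Poisson intervals 0.0124 to 0.176 and 0.0383 to 0.275 CPM). At this depth the intervals of the groups overlapped for both genes, and neither gene was tested in the primary edgeR analysis. The other 8 members were tested, and each was above the filter's level of 0.700 CPM in all 6 libraries.

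Hes1, the repressor that Notch signalling switches on in many tissues, measured 18.3 and 20.2 CPM in the shEmpty libraries and 25.7 CPM in shNS, against 12.3, 6.55 and 11.2 CPM under hairpins 1, 2 and 5. Each hairpin library was below each control, and hairpin 2 was lowest. The means were 21.4 ± 3.82 and 9.99 ± 3.03 CPM (SD, n = 3 each), for a log2 fold change of -1.10 ± 0.24 (SE) that missed the threshold (edgeR adjusted p = 0.0772). Hes1 was called lower by DESeq2 (adjusted p = 0.00117), by limma-voom with quality weights (0.0250) and by edgeR without hairpin 1 (0.0442), and its adjusted p reached 0.303 without control replicate 2.

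Hes6, a HES relative that antagonizes HES1 and is itself found in neurogenic and neuroendocrine cells, measured 225 and 272 CPM in the shEmpty libraries and 318 CPM in shNS, against 229, 230 and 216 CPM under hairpins 1, 2 and 5. The controls spanned more than the difference between groups, and hairpins 1 and 2 lay within them (log2 fold change -0.27 ± 0.12, SE; edgeR adjusted p = 0.327). Per kilobase, Hes6 exceeded Hes1 by 13.5, 14.8 and 13.6 to 1 in the controls and by 20.5, 38.7 and 21.3 to 1 under hairpins 1, 2 and 5. The ratio was nearly constant over the controls although both genes varied there, and it was higher in each shCrebbp library.

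Over the 8 tested members, 2 were called lower (0.978% of all tested genes), none higher and 6 not at all. Negative fold changes were found in 7, and the median log2 fold change was -0.51. The groups did not overlap in 6 of the 8, all of them lower under the hairpins, a pattern of 11.0% of all tested genes. Taken singly, hairpin 1 lay below all 3 controls in 6 of the 8 members (36.5% of all tested genes), hairpin 2 in 6 (36.8%) and hairpin 5 in 7 (31.5%). Hairpin 2 gave the lowest value for Dll1, Dll4, Jag1 and Hes1, and hairpin 5 for Dll3, Jag2 and Hes6. The log2 ratios of Dll4 to the control mean were -1.14, -1.80 and -1.49 under hairpins 1, 2 and 5, and those of Hes1 were -0.78, -1.67 and -0.92. Differences between hairpins have no replicates and were not tested.

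**Figure D3:**
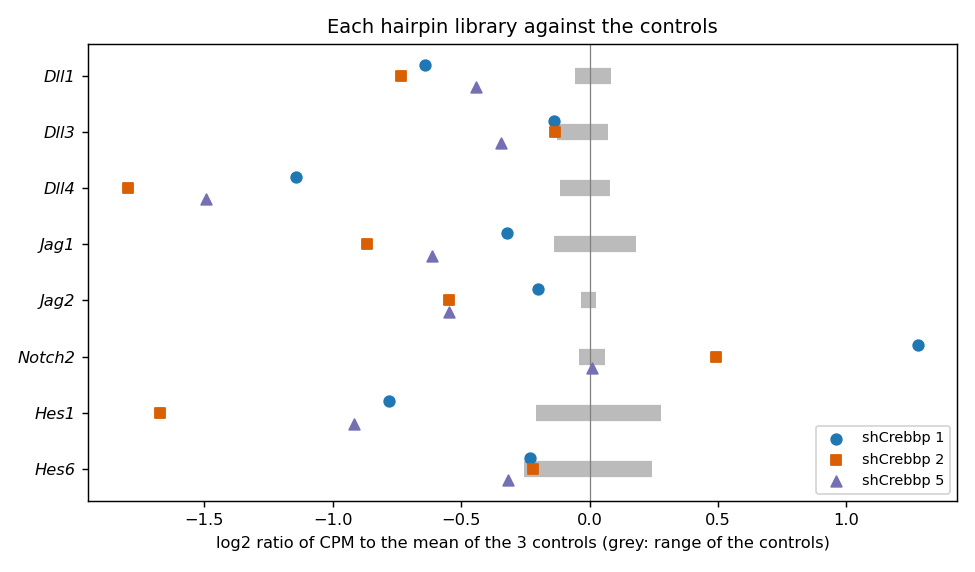
Log2 ratio of CPM to the mean of the 3 controls for the 8 tested members, 1 symbol per shCrebbp hairpin, with a grey bar for the range of the 3 controls. Dll4 lies at -1.14 to -1.80 for the 3 hairpins, and Notch2 spreads from 0.01 to 1.28.

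Differences between the control vectors are given as effect sizes only, because shNS stands on 1 library. Between the shNS library and the 2 shEmpty libraries, Hes6 was higher in shNS by 0.36 ± 0.15 (SE) on the log2 scale. For Hes1 the difference was 0.42 ± 0.34 (SE). For Dll1 and Dll4 the log2 differences between these vectors were -0.09 ± 0.17 and 0.12 ± 0.40 (SE). This fit assumes that the lone shNS library varies like the other libraries. Its spread includes the differences between hairpins, so it cannot show that the control vectors are alike.

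Of the other pathway genes, none was called. A list of 59 genes in 9 roles was examined, of which 52 were tested, with 29 negative and 23 positive fold changes, a median log2 fold change of -0.02, and 7 genes (13.5%) at an unadjusted p under 0.05, where 16.5% of all tested genes were. The groups did not overlap in 7 of the 52, of which 5 were lower and 2 higher under the hairpins, where 11.0% and 11.4% of all tested genes had these patterns. DESeq2 called 1 of them lower, Lfng, and limma-voom with quality weights 2, Lfng and Dtx1.

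Among the glycosylation enzymes that tune which ligand a receptor answers, Lfng had the lowest p of the 52 tested genes. This Fringe glycosyltransferase measured 117 and 111 CPM in the shEmpty libraries and 92.8 CPM in shNS, against 66.8, 39.0 and 73.2 CPM under hairpins 1, 2 and 5. Its groups did not overlap (log2 fold change -0.84 ± 0.21, SE; edgeR adjusted p = 0.106). The related Rfng ran the other way without overlap, at 38.4 to 53.0 CPM in controls and 59.0 to 71.8 CPM under the hairpins (log2 fold change 0.43 ± 0.14, SE; edgeR adjusted p = 0.181).

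Among the ubiquitin ligases that make ligands active by endocytosis, Neurl1b averaged 123 ± 10.8 CPM in controls against 90.7 ± 17.1 CPM under the hairpins, and Neurl1a averaged 121 ± 18.8 and 95.2 ± 11.1 CPM (SD, n = 3 each; edgeR adjusted p = 0.182 and 0.247). Of the 10 cleavage genes, Aph1b, a subunit of gamma-secretase, had a log2 fold change of -0.42 ± 0.12 (SE; edgeR adjusted p = 0.151) and Psenen, another subunit, of -0.21 ± 0.10 (adjusted p = 0.376). In the nuclear complex, Rbpj stood at 125 ± 5.61 and 152 ± 40.6 CPM (edgeR adjusted p = 0.475) and the Mastermind gene Maml3 at 26.6 ± 3.39 and 20.8 ± 4.73 CPM (adjusted p = 0.375). The corepressor genes Spen and Tle2 had log2 fold changes of -0.23 and -0.22 (edgeR adjusted p = 0.447 and 0.485). Of the Deltex genes, which act on receptor turnover, Dtx4 and Dtx1 had log2 fold changes of -0.40 ± 0.12 and -0.44 ± 0.17 (SE; edgeR adjusted p = 0.150 and 0.235), and in both genes the shCrebbp libraries lay below all controls. Dtx3, singled out for the opposite pattern, measured 93.9 to 96.4 CPM in controls and 97.4 to 114 CPM under the hairpins (log2 fold change 0.15 ± 0.08, SE; edgeR adjusted p = 0.440).

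Like Hes1, the other target genes were not called. Nrarp, a feedback inhibitor that Notch induces, averaged 34.6 ± 3.99 CPM in controls against 29.8 ± 8.48 CPM under the hairpins, and Heyl averaged 0.764 ± 0.344 and 0.523 ± 0.183 CPM (SD, n = 3 each; edgeR adjusted p = 0.666 and 0.601). Hey1, a HES-related repressor singled out after its values were seen, stood at 28.8 to 29.3 CPM in controls and 29.2 to 32.2 CPM under the hairpins (log2 fold change 0.06 ± 0.09, SE; edgeR adjusted p = 0.818). The hairpin libraries overlapped the controls for Hey1 and not for Hes1, a difference between the 2 genes that was not tested. Hes2 had no reads in any library.

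Of the remaining receptors and atypical ligands, Dner, a neuronal ligand, stood at 261 ± 27.6 and 245 ± 14.4 CPM and Dlk2 at 5.93 ± 1.17 and 5.59 ± 0.469 CPM (SD, n = 3 each; edgeR adjusted p = 0.716 and 0.893). Dlk1 had no reads in any library. Notch4, named after its values were seen, stood at 2.31 ± 0.176 and 2.27 ± 0.295 CPM (edgeR adjusted p = 0.971), a level per kilobase of 0.351 ± 0.0267 in controls, between those of Notch2 and Notch1.

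The neural and neuroendocrine factors linked to the pathway were not called either. Insm1, a zinc finger factor of neuroendocrine cells, averaged 735 ± 27.4 CPM in controls against 844 ± 143 CPM under the hairpins, and Neurod1 averaged 1.15 ± 0.369 and 1.41 ± 0.743 CPM (SD, n = 3 each; edgeR adjusted p = 0.458 and 0.823).

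**Figure D4:**
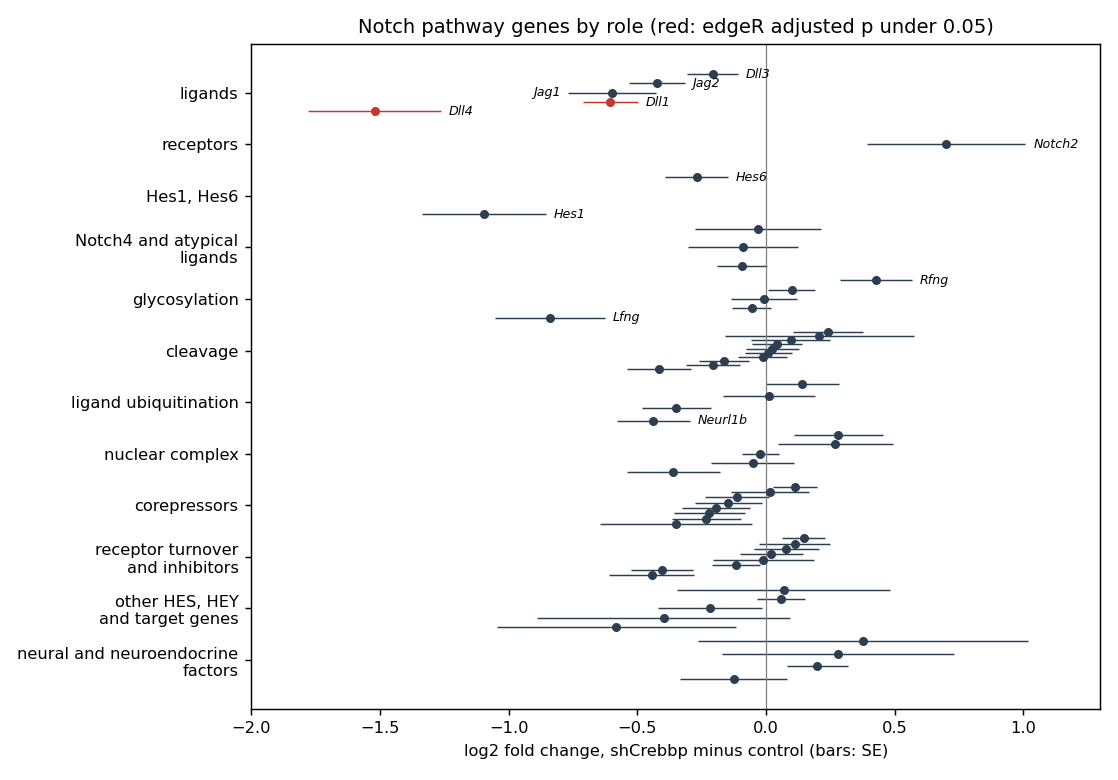
Log2 fold change (shCrebbp minus control, bars SE) of the 8 tested members and the 52 tested other pathway genes, in rows by role, with genes past an edgeR adjusted p of 0.05 in red. Dll4 (-1.52) and Dll1 (-0.60) are the red points, and Hes1 (-1.10) and Lfng (-0.84) lie farthest to the left among the rest.

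The genes whose values over the 6 libraries ran closest to those of the 2 called ligands were found by the root mean square difference of centred log2 CPM among 10544 genes. For Dll1 these were Rbm20 (0.031), Kcnk1 (0.031), Psmb8 (0.044), Mpst (0.050) and Cdc14b (0.055). Kcnk1, a potassium channel gene, averaged 107 ± 3.55 CPM in controls against 68.9 ± 7.81 CPM under the hairpins. For Dll4 they were Cldn7 (0.13), Clca4 (0.16), Clca1 (0.19), Galnt3 (0.19) and Anxa1 (0.20). Cldn7, which encodes the tight junction protein claudin 7, stood at 131 ± 8.30 and 52.5 ± 12.7 CPM (SD, n = 3 each). Dll4 had at most 101 reads in a library, so its distances include more counting error than those of Dll1.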

How the data were processed

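RNA from 6 libraries of preSC cells was measured by RNA-seq on oligo(dT)-selected messenger RNA, per the labels' protocols. Per the submitters' processing notes, the tools included bcl2fastq 1.8.2, TopHat2 2.0.12 and HTSeq 0.6.1 with mouse build mm9; no strand setting or annotation is recorded there. The authors deposited whole-number counts for each gene symbol, separately for every library. The 5 HTSeq summary rows (24.8% to 28.9% of counts) were left out. No pair within a group was as alike as counting noise alone would make it (chi-square over its degrees of freedom 4.08 to 28.4). No molecular identifiers are named, so intervals cover counting error only.

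All 23284 genes entered edgeR 4.0.16 in R 4.3.3 (TMM, filterByExpr, robust quasi-likelihood test, group as the only term, Benjamini-Hochberg over the 13390 genes kept, threshold 0.05). This script was tested on simulated data. Log2 CPM used a prior count of 2, and SEs came from the F statistic. Alternatives were DESeq2 1.42.0, limma-voom 3.58.1, other normalizations and filters, and leaving out each library. Transcript lengths are from GENCODE M21 (GRCm38) and promoters from RefSeq (GRCm38.p6), another build than that of the counts. Members and lists were chosen with earlier results of these data known. The rule named all 10 members, the 2 other pathway genes of smallest p in each role, those called or without reads, and for each called member the 5 genes of most similar values (average log2 CPM of at least 2). Some genes of these lists are not reported here.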

Additional observations from a re-analysis of the deposited data

How the results depend on the processing

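The 8 tested members kept the sign of their fold change under all 14 alternatives. The count of 2 called members (Dll1 and Dll4) was the same with RLE or upper quartile normalization, without a filter, with a filter of 1 CPM in 3 libraries, without robust estimation and with limma-voom. It was 4 with DESeq2 and 4 with limma-voom with quality weights (Dll1, Dll4, Jag2 and Hes1 in both). With a library left out it ranged from 0 to 4, being 0 without any one control or without hairpin 2, 4 without hairpin 1 and 1 (Dll1) without hairpin 5. The count over all tested genes, 168 in the primary edgeR analysis, was 730 with DESeq2, 682 with limma-voom with quality weights, and 0 to 389 with a library left out, being 0 without control replicate 1 or 2. The count of other pathway genes, 0 in that analysis, was 1 with DESeq2 and 2 with limma-voom with quality weights, and 0 under all omissions of a library. No paired analysis was possible because the labels themselves number libraries of both groups only with 2, a hairpin number in the shCrebbp group, and control numbers 1 and 3 were assigned in accession order. Levels per kilobase depend on the transcript: with the shortest coding transcript Jag2 rises to 251 CPM per kilobase, above Hes6, and Dll1 to 61.2, while Notch1 at 0.949 passes Notch2. The ligand shares and ratios were recomputed with the shortest and mean lengths, an alternative chosen after seeing the data, and the sides on which the groups lay did not change. Depth limits Notch1 and Notch3, with at most 11 and 3 reads in a library.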

Other observations

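Proneural genes upstream of Delta-type ligands gave unlike values in single hairpin libraries. Neurog3, a bHLH factor gene, measured 10.5 and 11.0 CPM in the shEmpty libraries and 9.26 CPM in shNS, against 2.20, 11.2 and 26.4 CPM under hairpins 1, 2 and 5. Hairpin 1 lay below the controls and hairpin 5 above them, and the gene was not called between groups (edgeR adjusted p = 0.836). Neurog2, a related gene, had 11, 8 and 2 reads in the controls and 1, 90 and 6 reads under hairpins 1, 2 and 5, so that most of its reads came from hairpin 2. Rest, a repressor of neuronal genes that Notch can induce, had 2 to 8 reads in each library, and Atoh1 had 3 reads in the first shEmpty library and none elsewhere. Each hairpin stands on 1 library, these genes were singled out after their values were seen, and the differences between hairpins were not tested.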
